A study of Mus musculus with 5 samples.

Results

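C1q macrophages of the lung interstitium and the tumour were taken from single-cell RNA-seq of murine small cell lung cancer (SCLC), and 1045 of the 86606 cell barcodes that passed the quality limits were members (1.21%). Members were chosen by their own transcripts: more than 150 genes, a mitochondrial share of at most 20%, at least 3 unique molecular identifiers (UMIs, 1 per captured transcript) of C1qa, C1qb and C1qc together, and 0 UMIs of Cd3e, Cd79a and Ms4a1, which mark lymphocytes, and of Siglecf, Mcemp1 and Plet1, which mark alveolar macrophages. The C1q genes and the 6 genes held at 0 are therefore a description of the choice, and their levels are no finding.

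All animals were Rb1 fl/fl x Trp53 fl/fl mice in which adenoviral Cre given through the airway removed the function of both tumour suppressors in the lung, so the vehicle group carried the same deletions as the treated ones, and which lung cells the virus reached is not given by the labels. One library each came from a tumour treated with vehicle (phosphate-buffered saline), with an antibody against PD-1 (anti-PD-1), with the ERBB2 inhibitor mubritinib (ERBB2i) or with both agents (combination), and 1 more came from a tumour under both agents that the labels call in response. The dose of either agent was 10 mg/kg, repeated every 3 days. The labels name the tissue an SCLC lung tumour and the cells epithelial. With 1 library per group no difference between treatments can be tested: intervals below cover counting error only, and a difference between libraries may be that of 2 tumours. Cell barcodes were 24 bases long in ERBB2i and combination and 27 bases in the other 3 libraries, so that between vehicle and ERBB2i, and between vehicle and combination, treatment and barcode length cannot be told apart.

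C1q is the recognition subunit of the classical complement pathway, and unlike most complement proteins it is made by macrophages rather than by hepatocytes. In the lung, C1q marks the macrophages of the interstitium around airways, vessels and nerves, which present antigen on MHC class II, and the monocyte-derived macrophages that gather in tumours, whereas the macrophages of the alveolar space depend on surfactant handling genes and carry little C1q. Tumour macrophages take up lipid and debris through receptors such as Trem2, and respond to interferons with chemokines that call in T cells.

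Promoter sequences of members' leading genes are shown because 3 groups of genes on which the results turn carry known short motifs there. RefSeq sequences of the GRCm38.p6 assembly (the mm10 build) were searched on both strands over the 250 bases before each start, and capitals mark each match. C1qb and C1qc, which encode the B and C chains, hold GAGGAA, the core bound by PU.1, the lineage factor of macrophages. C1qb lies on the minus strand of chromosome 4 at chr4:136886201-136886340 and C1qc on the same strand at chr4:136892915-136893164. Each window is printed on the strand of its gene, and TTCCTC in C1qc is the same core read on the opposite strand.
C1qb: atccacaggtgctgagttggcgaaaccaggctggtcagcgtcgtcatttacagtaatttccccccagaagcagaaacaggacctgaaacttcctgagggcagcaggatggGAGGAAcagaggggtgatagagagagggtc
C1qc: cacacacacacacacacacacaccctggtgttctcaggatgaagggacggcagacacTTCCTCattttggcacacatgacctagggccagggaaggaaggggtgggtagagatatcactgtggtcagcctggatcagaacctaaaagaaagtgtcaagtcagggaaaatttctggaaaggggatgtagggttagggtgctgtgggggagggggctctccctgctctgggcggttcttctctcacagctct
This core was common, with a match in 25.9% of genes. H2-Aa and H2-Eb1, the alpha chain of I-A and the beta chain of I-E, hold CTGATTGG, the Y box of MHC class II promoters, 51 and 62 bases before the start. H2-Aa is on the minus strand at chr17:34287824-34287963 and H2-Eb1 on the plus strand at chr17:34305727-34305866.
H2-Aa: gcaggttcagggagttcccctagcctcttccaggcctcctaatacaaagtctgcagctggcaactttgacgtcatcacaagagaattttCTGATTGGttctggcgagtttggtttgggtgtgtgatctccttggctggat
H2-Eb1: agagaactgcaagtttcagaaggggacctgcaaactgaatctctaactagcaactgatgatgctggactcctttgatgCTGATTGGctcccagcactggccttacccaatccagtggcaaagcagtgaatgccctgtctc
The Y box letters were found in 2 of the 7 MHC class II genes with a promoter entry and in 4.43% of all genes. Isg15, Ifit1 and Rsad2, antiviral effectors, hold the interferon-stimulated response element (GAAA, any 2 bases and GAAA again) in 3 overlapping copies, 2 copies and 1 copy. Isg15 is on the minus strand at chr4:156200819-156200958, Ifit1 on the plus strand at chr19:34640749-34640888 and Rsad2 on the minus strand at chr12:26456453-26456592, and in the last 2 the element lies on the opposite strand.
Isg15: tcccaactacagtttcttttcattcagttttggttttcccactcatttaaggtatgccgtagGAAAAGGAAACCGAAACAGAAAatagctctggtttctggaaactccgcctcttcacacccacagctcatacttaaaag
Ifit1: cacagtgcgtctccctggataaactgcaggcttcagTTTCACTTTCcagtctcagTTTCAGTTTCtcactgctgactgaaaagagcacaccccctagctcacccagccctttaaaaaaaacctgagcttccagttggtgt
Rsad2: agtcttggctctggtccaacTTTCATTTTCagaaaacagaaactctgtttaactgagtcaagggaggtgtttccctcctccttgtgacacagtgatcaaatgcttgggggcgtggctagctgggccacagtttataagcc
The element was found in 12 of the 18 interferon response genes with an entry and in 3.46% of all genes.

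Members made up 1.57% of the vehicle library (152 of 9674 barcodes, 95% Clopper-Pearson interval 1.33 to 1.84), 0.278% of anti-PD-1 (37 of 13320, 0.196 to 0.383), 1.10% of ERBB2i (289 of 26294, 0.977 to 1.23), 2.03% of combination (552 of 27203, 1.86 to 2.20) and 0.148% of combination in response (15 of 10115, 0.0830 to 0.244). The share was lowest in the 2 libraries where T cell transcripts were most abundant outside the members: 14 T cell genes summed to 7978 CPM (UMIs scaled to 1000000 per library) in anti-PD-1 and 21158 in combination in response, against 80.2 to 627 in the other 3. The part of those cells in the members' shares was not tested. Counting only members with 0 UMIs of 10 tumour genes, the shares were 0.413%, 0.180%, 0.259%, 0.404% and 0.129% in the order above. Combination was then not above vehicle. Summed over members, the libraries held 930810, 106882, 912308, 1909348 and 59675 UMIs in the order above, so that a gene with 0 UMIs may lie at up to 3.22, 28.1, 3.29, 1.57 or 50.3 CPM (3 counts). The 15 members of combination in response are therefore given as values only, and no ratio was formed with them. No barcode sequence of a member was shared by 2 libraries.

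**Figure D1:**
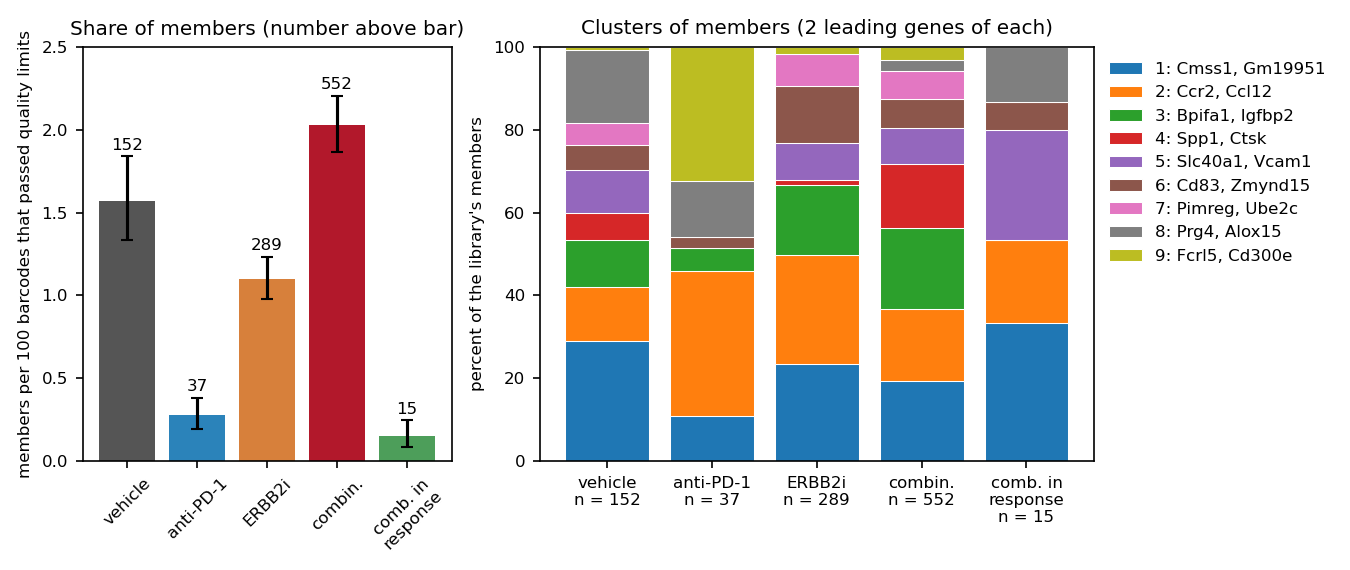
Left, members per 100 barcodes that passed the quality limits in each library, with 95% Clopper-Pearson intervals and the number of members above each bar; combination is highest at 2.03 and combination in response lowest at 0.148. Right, the percentage of each library's members in 9 clusters, each named by 2 of its leading genes; the olive cluster 9 holds 32.4% of the anti-PD-1 members and the red cluster 4 holds 15.6% of the combination members.

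Checked against genes that the rule did not use, 943 of 1045 members had UMIs of at least 3 of 10 macrophage genes, among them Csf1r, Cd68, Adgre1, Fcgr1, Tyrobp and Lyz2. By library the share was 92.8%, 91.9%, 90.7%, 89.1% and 93.3%. Near the C1q threshold it was lower: 58.9% of the 146 members with 3 C1q UMIs and 77.4% of the 84 with 4 had 3 such genes, compared with 99.7% of the 614 with 10 or more and 28.7% of the 407 barcodes just outside with 2. Neuroendocrine tumour transcripts ran the opposite way, at 5875 CPM for 14 tumour genes in members with 3 C1q UMIs and 986 in those with 10 or more. Barcodes with 2 C1q UMIs held 5992 CPM of the tumour genes. Over all members the tumour genes summed to 1162, 777, 1737, 2852 and 33.5 CPM, and over the other barcodes to 6040, 2157, 5487, 6795 and 29.2. Only 255 members held no UMI of 10 of those genes. Some of the results that changed in these 255 are named below, and the reversed ratios are listed at the end. C1q transcripts themselves summed to between 5.07 and 159 CPM over the other barcodes.

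**Figure D2:**
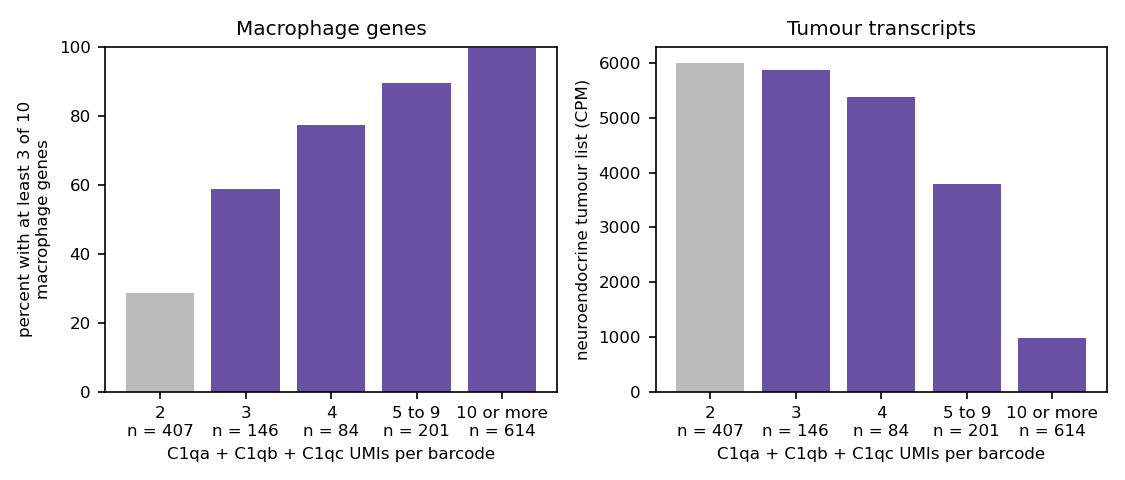
Barcodes that met the rest of the rule, grouped by the number of C1qa, C1qb and C1qc UMIs (x axis, with the number of barcodes); grey is just outside the rule. The left bars give the percentage with UMIs of at least 3 of 10 macrophage genes, which goes from 28.7 to 99.7, and the right bars the summed CPM of 14 neuroendocrine tumour genes, which goes from 5992 to 986.

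The rule for alveolar macrophages and lymphocytes removed 316 barcodes with 3 or more C1q UMIs, of which 71 came from vehicle and 200 from combination. Mcemp1 was found in 59 of the 71 and in 95 of the 200, and Plet1 in 135 of the 200. In anti-PD-1 Cd3e alone removed all 6, and in combination in response it was found in 7 of 8.

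Genes high in members over all other barcodes describe the barcodes that the C1q minimum selected, and no test is given for them. By the lowest fold among the 4 libraries with 20 or more members, Ccl8, a monocyte chemokine, came first at 293-fold. Its levels were 132 CPM with vehicle, 393 with anti-PD-1, 135 with ERBB2i, 159 with the combination and 938 with the combination in response. The vehicle value rested largely on 1 member, which held 69.9% of its UMIs. Ms4a7, a tetraspan surface protein, stood at 1245 CPM with vehicle, 1085 with anti-PD-1, 1138 with ERBB2i, 1294 with the combination and 1123 with the combination in response and was at least 71.9-fold over other barcodes. It varied least of the given markers, and none of its 4 ratios between libraries passed 2-fold. C3ar1, the receptor for complement C3a, stood at 461 CPM with vehicle, 477 with anti-PD-1, 262 with ERBB2i, 337 with the combination and 302 with the combination in response. ERBB2i was the lowest of these. Aif1, an actin-binding protein of macrophages, stood at 710.1 CPM with vehicle, 1329 with anti-PD-1, 847 with ERBB2i, 829 with the combination and 804 with the combination in response. Igf1, a growth factor, Il18bp, the decoy of interleukin-18, Selenop, a selenium carrier, Wfdc17, a secreted whey acidic protein, Asb2, a ubiquitin ligase adaptor, Clec4a1, a lectin, and Fcgr1, the high-affinity IgG receptor, were also among the first 15, with Apoe, at lowest folds from 30.8 (Fcgr1) to 52.2 (Asb2). The 3 C1q genes, which the rule used, were at 67.1 to 77.3.

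Of the given markers, Apoe and Mrc1 differed most between libraries. Apoe, which carries lipid out of macrophages, stood at 29337 CPM with vehicle, 7036 with anti-PD-1, 21649.5 with ERBB2i, 12826 with the combination and 39062 with the combination in response, and its log2 ratio was -2.06 (95% interval -2.17 to -1.96) in anti-PD-1 over vehicle. It was in 22 of 37 anti-PD-1 members and 146 of 152 vehicle members. Mrc1, the mannose receptor, stood at 363 CPM with vehicle, 159 with anti-PD-1, 242 with ERBB2i, 225 with the combination and 1659 with the combination in response, with 10 of 15 members of combination in response holding a UMI. Csf1r, the receptor on which macrophages depend for survival, stood at 510.3 CPM with vehicle, 290.0 with anti-PD-1, 457 with ERBB2i, 326 with the combination and 1156 with the combination in response. Csf1r was found in 52.0%, 48.6%, 48.1% and 44.6% of members in vehicle, anti-PD-1, ERBB2i and combination, at median depths of 3737, 2532, 2332 and 2734 UMIs. After each barcode was thinned to 500 UMIs, which left out no member, it was found in 18.4%, 18.9%, 15.2% and 13.8% of members. Tumour barcodes, 3000 in each of these libraries, held at least 5 UMIs of 10 tumour genes and 0 UMIs of the 10 macrophage genes. Their median depths were 4637, 3307.5, 2593 and 2830 UMIs. Csf1r is 1 of those macrophage genes, so its absence from tumour barcodes was set by their choice. That choice also left out barcodes with macrophage RNA, so the low shares of H2-Aa and Fcgr4 given below for tumour barcodes partly follow from it.

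Members fell into 9 clusters by their own expression, which are numbered and called by their leading genes. The genes that define the clusters also differ between libraries, so the counts below say where members fell and do not compare groups. Cluster 1 (227 members) was the shallowest, with a median of 890 UMIs. Cluster 2 (208) led with Ccr2, the receptor of recruited monocytes, Ccl12, a monocyte chemokine, and Mgl2, a lectin, and held the most MHC class II transcripts, 73724 CPM over 10 genes. Cluster 4 (99) led with Spp1 (osteopontin) and Ctsk (a collagen-cutting cathepsin), cluster 5 (94) with Slc40a1 (the iron exporter), Vcam1 and Spic (the factor of haem-recycling macrophages), and cluster 6 (90) with Cd83, Fosb and Atf3 beside 61184 CPM of MHC class II. Cluster 8 (48) led with Prg4, Vsig4 and Lyve1, and cluster 9 (36) with Fcrl5, Cd300e and interferon-induced genes. Clusters 3 (176) and 7 (67) held 6140 and 5457 CPM of the neuroendocrine genes, and 71.6% and 59.7% of their members had 3 of the 10 macrophage genes, against 91.6% to 100% in the other clusters. Cluster 7 also led with mitotic genes such as Plk1 and Ube2c, at 19045 CPM for 14 cell cycle genes.

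Libraries filled the clusters unevenly. Of 99 members in cluster 4, 86 were from combination (15.6% of its members), 10 from vehicle (6.58%) and 3 from ERBB2i (1.04%). Cluster 8 held 27 of the 152 vehicle members (17.8%, 12.0 to 24.8), 5 of 37 from anti-PD-1 (13.5%), 14 of 552 from combination (2.54%, 1.39 to 4.22) and 0 of 289 from ERBB2i, which allows a share of up to 1.04%. Cluster 9 held 12 of 37 anti-PD-1 members (32.4%, 18.0 to 49.8) and 18 of 552 from combination (3.26%). Surfactant genes also stood among the leading genes of cluster 2, but 1 barcode of combination gave 92.9% of that library's 3693 Sftpc UMIs.

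**Figure D3:**
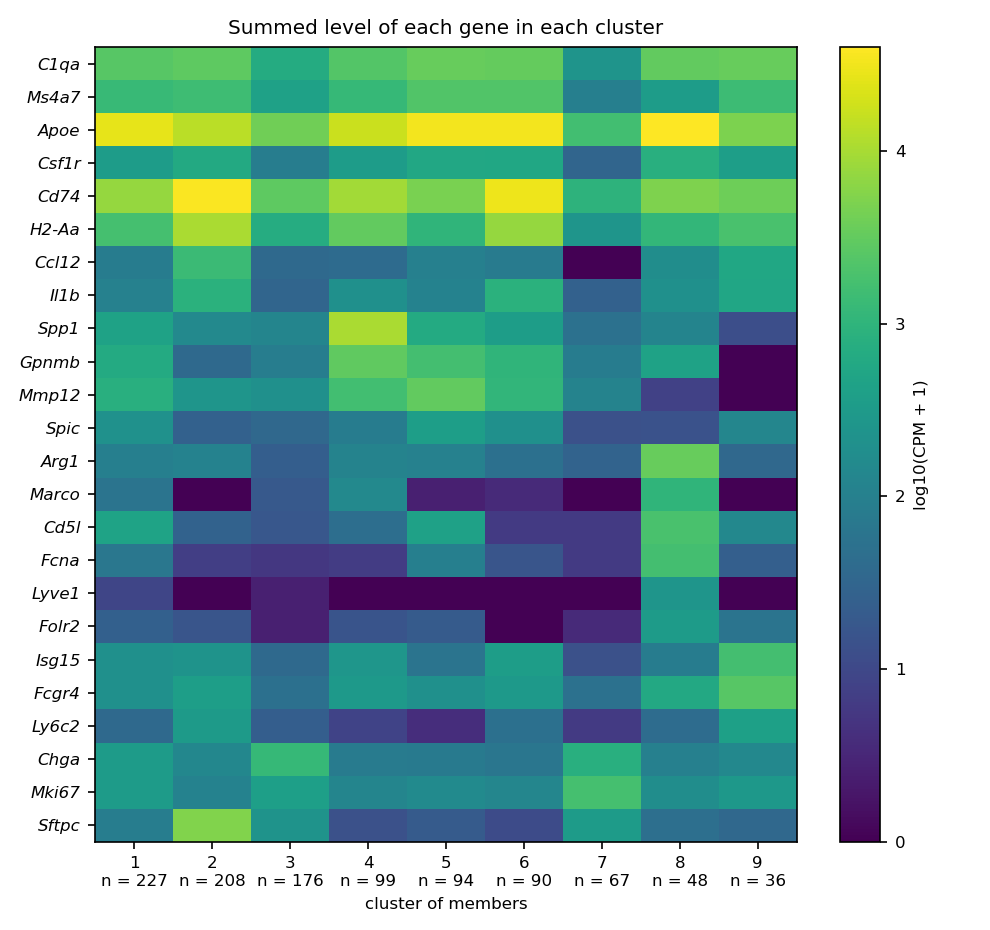
Level of 24 genes (rows) summed over the members of each of 9 clusters (columns, with their number of members), coloured as log10 of CPM + 1. Spp1 is brightest in cluster 4, Arg1, Marco, Cd5l and Fcna in cluster 8, Isg15 and Fcgr4 in cluster 9, Chga in clusters 3 and 7, and C1qa is present in every cluster.

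Levels were next compared between libraries in 4 pairs, each gene by its UMIs summed over members. A gene counted as tested with at least 30 UMIs in the pair and a mean of at least 20 CPM, and as called at a ratio of at least 2 in either direction, whatever its interval. In anti-PD-1 over vehicle 552 of 5495 genes (10.0%) were called higher and 1054 (19.2%) lower. For ERBB2i over vehicle these were 591 of 7263 (8.14%) and 281 (3.87%). In combination over vehicle they were 666 of 7219 (9.23%) and 282 (3.91%), and in combination over ERBB2i, which like anti-PD-1 over vehicle is a pair of 1 barcode length, 322 of 7524 (4.28%) and 263 (3.50%). Counting error was widest in anti-PD-1, where the 95% interval excluded equal levels for 437 of the 552 and 440 of the 1054, against 278 of the 281 called lower in ERBB2i and all of those called in the other 5 directions. The median log2 ratio over all genes was -0.10, 0.14, 0.16 and 0.03. Scaling by the trimmed mean of M values (TMM) moved it to -0.30, -0.06, -0.02 and 0.05, and the higher genes from 34.4% of those called to 21.8% in anti-PD-1, from 67.8% to 44.4% in ERBB2i and from 70.3% to 50.3% in combination over vehicle. With a filter of 5 UMIs in place of 30, the anti-PD-1 split turned to 3019 higher and 1395 lower (68.4% higher), with a median of 0.32. Subtracting the RNA of other barcodes in proportion to the tumour and T cell transcripts in members, which removed 19.2%, 11.1%, 31.0% and 41.5% of member UMIs in the 4 libraries, gave 52.4% and 53.7% for the last 2. The 3 pairs with vehicle share that library, so that their values are set side by side and no overlap is read between them.

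MHC class II, which shows peptides to CD4+ T cells, stood higher in anti-PD-1 and ERBB2i than in vehicle members. H2-Aa stood at 1912 CPM with vehicle, 6109.5 with anti-PD-1, 5349 with ERBB2i, 3162 with the combination and 4994 with the combination in response. The vehicle level was lowest, and those of anti-PD-1 and ERBB2i had intervals wholly above that of combination. The log2 ratio to vehicle was 1.68 (95% interval 1.54 to 1.81) in anti-PD-1, 1.48 (95% interval 1.41 to 1.56) in ERBB2i and 0.73 (95% interval 0.65 to 0.80) in combination. H2-Eb1 followed the same order, at 1292 CPM with vehicle, 5436 with anti-PD-1, 4231 with ERBB2i, 2219.6 with the combination and 2765 with the combination in response. Cd74, the invariant chain that guides class II molecules to the endosome, stood at 8490.5 CPM with vehicle, 19788 with anti-PD-1, 21694 with ERBB2i, 10621 with the combination and 10808 with the combination in response. Ciita, the transactivator that switches on class II genes, was low but ordered alike, at 15 CPM with vehicle, 122 with anti-PD-1, 61.4 with ERBB2i, 41.9 with the combination and 50.3 with the combination in response, from 14, 13, 56, 80 and 3 UMIs. Of 10 class II genes, 6 of 8 tested were called higher in anti-PD-1 (median log2 ratio 1.22), 5 of 9 in ERBB2i (1.32) and 1 of 9 in combination over vehicle (0.33), with 0 lower, beside 10.0%, 8.14% and 9.23% of all genes. In combination over ERBB2i 0 were higher and 1 lower, beside 4.28% and 3.50% of all genes. The lower gene was Cd74 at -1.03 (95% interval -1.06 to -1.0), and the median was -0.72. Without clusters 3 and 7 that ratio of Cd74 was -0.94, under 2-fold, and with no tumour UMI the class II median in combination over vehicle was -0.01.

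The class II transcripts were concentrated in few clusters. In anti-PD-1, 91.7% of H2-Aa UMIs were in the 13 members of cluster 2, and 1 of those members held 24.3% of them. In ERBB2i 53.2% were in cluster 2 and 32.9% in cluster 6, and in vehicle 41.1% and 23.5%. Within cluster 2 the 10 genes summed to 57495 CPM with vehicle, 87503 with anti-PD-1, 81565 with ERBB2i and 71052 with the combination, and within cluster 6 to 73211 in ERBB2i and 50738 in combination. H2-Aa was found in 56.6% of vehicle, 64.9% of anti-PD-1, 66.8% of ERBB2i and 65.4% of combination members. After thinning, these were 36.8% of vehicle, 56.8% of anti-PD-1, 53.6% of ERBB2i and 46.6% of combination members, against 0.30%, 0.933%, 1.10% and 1.67% of tumour barcodes. In members with no tumour UMI the ERBB2i ratios were under 2-fold, at 0.77 for H2-Aa, 0.80 for H2-Eb1 and 0.63 for Cd74, and that of Cd74 in anti-PD-1 was 0.58.

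**Figure D4:**
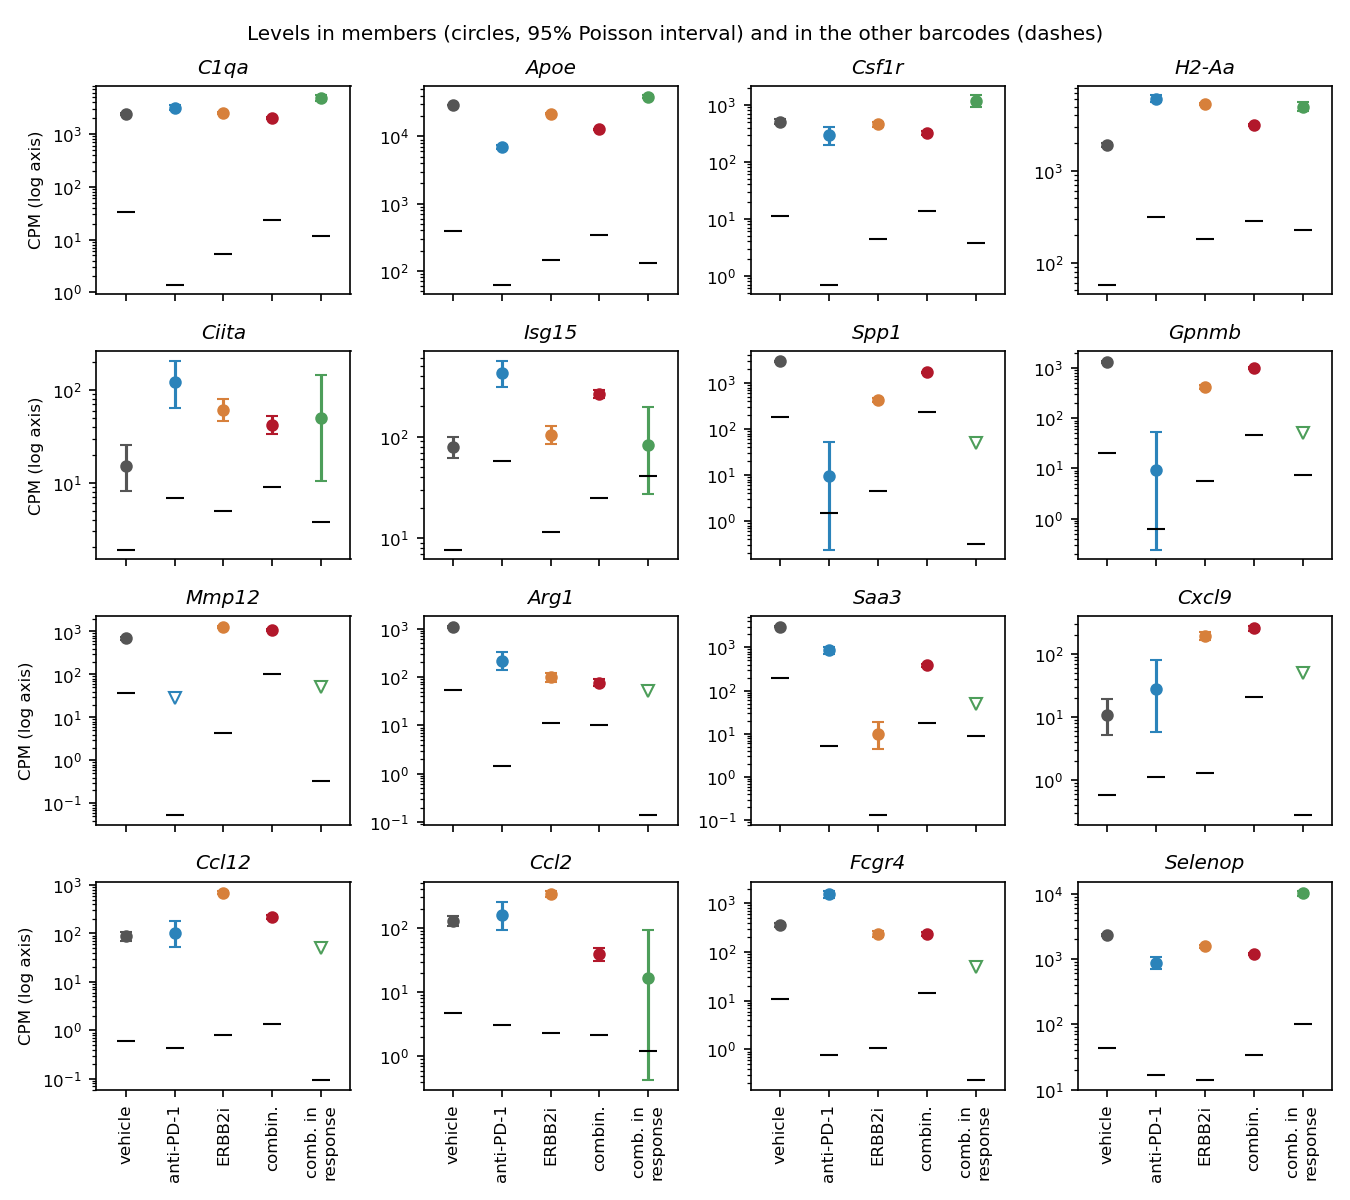
CPM (log axis) of 16 genes summed over the members of each library (circles, with 95% Poisson intervals) and over the other barcodes of the same library (dashes; those at 0 are not drawn); open triangles mark the limit for a gene with 0 UMIs. H2-Aa is lowest in vehicle at 1912 CPM, Spp1, Arg1 and Saa3 are highest there, and Fcgr4 is highest in anti-PD-1 at 1525 CPM.

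MHC class I genes, which show peptides to CD8+ T cells, were higher in anti-PD-1, where 6 of 10 tested (H2-T23, Tap1, Psmb8, Psmb9, Psmb10 and Nlrc5) were at least 2-fold higher and 0 lower, beside 10.0% and 19.2% of all genes, with a median of 1.18 that went to 0.49 after thinning. Tap1 carries peptides into the endoplasmic reticulum, the 3 Psmb genes encode immunoproteasome subunits that cut them, and Nlrc5 switches class I genes on. In ERBB2i over vehicle 1 of 11 was higher (Tap2) and 0 lower, beside 8.14% and 3.87% of all genes. In combination 0 were higher and 1 lower (H2-T23) over either library, beside 3.91% lower over vehicle and 3.50% over ERBB2i.

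Of the interferon response genes, 12 of 18 tested were higher in anti-PD-1 than in vehicle, 7 of 21 in combination and 3 of 19 in ERBB2i. Isg15, a ubiquitin-like antiviral protein, stood at 79.5 CPM with vehicle, 421 with anti-PD-1, 104 with ERBB2i, 262 with the combination and 83.8 with the combination in response. Its log2 ratio over vehicle was 2.40 (95% interval 1.84 to 2.96) in anti-PD-1, 0.39 (95% interval -0.06 to 0.85) in ERBB2i and 1.72 (95% interval 1.37 to 2.10) in combination, and over ERBB2i it was 1.33 (95% interval 1.01 to 1.67) in combination. Anti-PD-1 and combination thus lay above the other libraries. Rsad2, which blocks viral replication, stood at 24.7 CPM with vehicle, 131 with anti-PD-1, 54.8 with ERBB2i and 135 with the combination and was higher in each treated library. These rest on 23, 14, 50 and 257 UMIs, and the ERBB2i ratio of 1.15 (95% interval 0.41 to 1.93) was 0.95 with TMM and 0.69 in members with 10 or more C1q UMIs. Ifit1 stood at 25.8 CPM with vehicle, 178 with anti-PD-1, 20.8 with ERBB2i and 60.2 with the combination and was higher than vehicle in anti-PD-1 and combination, where 1 member held 33.9% of it. Irf7, which amplifies interferon production, had a log2 ratio over vehicle of 1.59 (95% interval 1.15 to 2.03) in anti-PD-1 and -1.91 (95% interval -2.42 to -1.43) in ERBB2i, the latter -0.97 without clusters 3, 7 and 8. Ifitm3, which keeps viruses from entering the cytosol, stood at 725 CPM with vehicle, 3378 with anti-PD-1, 439.5 with ERBB2i and 356 with the combination, so that anti-PD-1 and combination lay on opposite sides of vehicle for this gene. Of 22 genes, 12 of 18 tested were higher and 2 lower in anti-PD-1 (median 1.58), 3 and 2 of 19 in ERBB2i (-0.09), 7 and 2 of 21 in combination over vehicle (0.53) and 9 and 0 of 21 in combination over ERBB2i (0.73), beside 10.0%, 8.14%, 9.23% and 4.28% of all genes called higher. Called lower in the same pairs were 19.2%, 3.87%, 3.91% and 3.50% of all genes. Over the 13 alternatives the medians of the 3 positive pairs stayed between 0.36 and 2.18.

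Other barcodes of anti-PD-1 carried 1870 CPM of the 22 interferon genes against 362 in vehicle, and those of combination 785.0, beside 9936, 3054 and 3470 CPM in the members. In combination, Isg15 was spread over cluster 4 (24.2% of UMIs), cluster 6 (23.8%), cluster 9 (21.6%) and cluster 2 (15.4%). In anti-PD-1, 64.4% lay in cluster 2 and 22.2% in cluster 9.

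Cxcl9, an interferon-gamma-induced chemokine for activated T cells, was among the 10 largest ratios over vehicle in ERBB2i and in combination. It stood at 10.7 CPM with vehicle, 28.1 with anti-PD-1, 193 with ERBB2i, 258 with the combination and 0 with the combination in response, from 10, 3, 176, 492 and 0 UMIs. The log2 ratio to vehicle was 4.17 (95% interval 3.25 to 5.25) in ERBB2i and 4.58 (95% interval 3.69 to 5.65) in combination. Its UMIs lay in different clusters: 79.5% of ERBB2i UMIs were in cluster 2 and 61.6% of combination UMIs in cluster 4, and it was found in 19 of 289 and 85 of 552 members. Cxcl10, which binds the same receptor, passed 2-fold in none of the 4 pairs, at 50.5 CPM with vehicle, 65.5 with anti-PD-1, 78.9 with ERBB2i and 58.1 with the combination. Ccl5, another T cell attractant, had a log2 ratio over vehicle of 3.04 (95% interval 2.61 to 3.49) in ERBB2i and 3.08 (95% interval 2.67 to 3.52) in combination, but other barcodes of ERBB2i held 849 CPM beside 441 in members.

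Lipid-associated and tumour macrophage genes were lower in anti-PD-1 than in vehicle members, and 8 of 19 were lower in ERBB2i. Spp1, a matrix protein that macrophages secrete in tumours and scars, stood at 2968 CPM with vehicle, 9.36 with anti-PD-1, 429.7 with ERBB2i, 1729 with the combination and 0 with the combination in response. Vehicle was highest, and anti-PD-1 held 1 UMI in 37 members. The log2 ratio was -8.31 (95% interval -13.61 to -5.83) in anti-PD-1 over vehicle, -2.79 (95% interval -2.94 to -2.64) in ERBB2i over vehicle, -0.78 (95% interval -0.85 to -0.71) in combination over vehicle and 2.01 (95% interval 1.86 to 2.16) in combination over ERBB2i. Cluster 4 held 85.9% of the vehicle and 90% of the combination UMIs, and 1 vehicle member held 33.6%. Gpnmb, a membrane glycoprotein of lipid-laden macrophages, stood at 1330.0 CPM with vehicle, 9.36 with anti-PD-1, 415 with ERBB2i, 1008 with the combination and 0 with the combination in response and was found in 60, 1, 55, 208 and 0 members. Trem2, the lipid receptor, stood at 565 CPM with vehicle, 65.5 with anti-PD-1, 279.5 with ERBB2i, 281 with the combination and 101 with the combination in response. Vehicle was again the highest, and ERBB2i and combination were alike. Fabp5, a fatty acid carrier, stood at 1816 CPM with vehicle, 234 with anti-PD-1, 899 with ERBB2i, 988 with the combination and 117 with the combination in response. Lpl, a lipase, stood at 764 CPM with vehicle, 374 with anti-PD-1, 528 with ERBB2i, 858 with the combination and 469 with the combination in response, with combination the highest. Mmp12, the macrophage elastase, was higher in ERBB2i and combination than in vehicle. It stood at 696 CPM with vehicle, 1277 with ERBB2i and 1087 with the combination and at 0 UMIs for the other 2 libraries, and its log2 ratio in anti-PD-1 was at most -4.63 with the 0 set to 3 counts.

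Of 20 genes of this list, 17 of 19 tested were lower in anti-PD-1 (median -2.06), 8 in ERBB2i (-0.90) and 4 in combination over vehicle (-0.58), with 0 higher in each, beside 19.2%, 3.87% and 3.91% of all genes. In combination over ERBB2i 4 were higher (Spp1, Gpnmb, Cd9 and Cd36) and 0 lower, beside 4.28% and 3.50% of all genes, with a median of 0.24. Among the 255 members with no tumour UMI the ERBB2i and combination medians were 0.06 and 0.50, while that of anti-PD-1 was -1.83. In the same members the log2 ratios in ERBB2i over vehicle were 1.51 for Spp1 and 0.16 for Gpnmb. Apoe is part of this list and of the given markers.

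Arg1, Saa3, Fcna, Cd5l, C4b and Ecm1 were higher in vehicle than in the other 3 libraries with 20 or more members. Arg1, which consumes arginine, stood at 1070.0 CPM with vehicle, 215 with anti-PD-1, 99.7 with ERBB2i, 76.5 with the combination and 0 with the combination in response, and cluster 8 held 90.6% of its vehicle UMIs. Saa3, an acute phase apolipoprotein, stood at 3038 CPM with vehicle, 851 with anti-PD-1, 9.87 with ERBB2i, 384 with the combination and 0 with the combination in response. All 91 anti-PD-1 UMIs came from 1 member, and 1 vehicle member held 37.2% of that library's 2828. In combination 1 member held 62.8% of 734 UMIs. The log2 ratio in ERBB2i over vehicle was -8.27 (95% interval -9.40 to -7.34), from 9 UMIs in ERBB2i. Fcna, a ficolin that binds microbial sugars, stood at 459.8 CPM with vehicle, 103 with anti-PD-1, 14.2 with ERBB2i, 45 with the combination and 871 with the combination in response, with 96.3% of vehicle UMIs in cluster 8. Cd5l, a lipid-binding protein of resident macrophages, stood at 700.5 CPM with vehicle, 356 with anti-PD-1, 185 with ERBB2i, 92.2 with the combination and 33.5 with the combination in response. Combination in response was above vehicle for Fcna and below it for Cd5l. C4b, a complement protein, stood at 283 CPM with vehicle, 93.6 with anti-PD-1, 3.29 with ERBB2i, 19.4 with the combination and 83.8 with the combination in response. Ecm1, a matrix protein, stood at 743 CPM with vehicle, 37.4 with anti-PD-1, 72.3 with ERBB2i, 93.2 with the combination and 168 with the combination in response. Marco, a scavenger receptor, had 310 vehicle UMIs, of which 1 member held 68.7%, and 0 in ERBB2i. Thbs1 and Fn1, which encode thrombospondin and fibronectin, had 77.9% and 82.4% of their vehicle UMIs in cluster 8.

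Leaving out clusters 3, 7 and 8, a choice made after the data were seen, ended or turned several of these differences. The log2 ratio of Arg1 in ERBB2i over vehicle went from -3.42 (95% interval -3.75 to -3.11) to 0.03, and Fn1 from -2.67 (95% interval -3.04 to -2.32) to -0.05. In combination over vehicle, Fcna went from -3.35 to 0.91, Saa3 from -2.98 to 1.00, and Ecm1 from -3.0 to -0.78. Arg1 in combination kept its direction, from -3.81 to -1.16, and Saa3 in ERBB2i, from -8.27 to -3.92. In members with no tumour UMI, Arg1 in ERBB2i over vehicle was 0.048.

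Ccl2 and Ccl12, monocyte chemokines, were higher in ERBB2i than in combination. Ccl2, the main ligand of Ccr2, stood at 131 CPM with vehicle, 159 with anti-PD-1, 338 with ERBB2i, 39.3 with the combination and 16.8 with the combination in response, with the log2 ratio 1.37 (95% interval 1.06 to 1.68) in ERBB2i over vehicle and -3.10 (95% interval -3.49 to -2.74) in combination over ERBB2i. Ccl12, its mouse relative, stood at 87 CPM with vehicle, 103 with anti-PD-1, 695 with ERBB2i, 222 with the combination and 0 with the combination in response, with log2 ratios of 3.0 (95% interval 2.66 to 3.35) and -1.65 (95% interval -1.83 to -1.47) in the same pairs. ERBB2i was the highest library for both genes. In ERBB2i 88.5% of Ccl12 UMIs were in cluster 2, and 1 member held 37.2%. Averaging members equally, or thinning them, gave -0.92 and -0.99 for combination over ERBB2i, just under 2-fold. Ccr2 itself stood at 43 CPM with vehicle, 346 with anti-PD-1, 199 with ERBB2i and 106 with the combination. Ccl6, a macrophage chemokine, stood at 2887 CPM with vehicle, 1459.5 with anti-PD-1, 589 with ERBB2i, 828 with the combination and 855 with the combination in response. Cxcl2, which recruits neutrophils, stood at 746 CPM with vehicle, 431 with ERBB2i and 137 with the combination, with 0 UMIs in anti-PD-1. Vehicle was highest for both. Of 18 chemokines, 2 of 15 tested were higher and 5 lower in anti-PD-1 (median 0.20), 3 and 4 of 17 in ERBB2i (0.03), 2 and 8 of 16 in combination over vehicle (-1.01), and 1 and 5 of 15 in combination over ERBB2i (-0.54). Of all genes, 10.0% were higher and 19.2% lower in anti-PD-1, 8.14% and 3.87% in ERBB2i, 9.23% and 3.91% in combination over vehicle, and 4.28% and 3.50% in combination over ERBB2i. The anti-PD-1 median was below 0 in 5 of the 13 alternatives, down to -1.37 after thinning, and that of ERBB2i was -0.17 with TMM. With no tumour UMI, the chemokine median in combination over vehicle was -0.19.

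Inflammatory cytokines were lower in combination than in ERBB2i. Il1b, interleukin-1 beta, stood at 201 CPM with vehicle, 178 with anti-PD-1, 642 with ERBB2i, 224 with the combination and 519 with the combination in response. Its log2 ratio was 1.68 (95% interval 1.44 to 1.92) in ERBB2i over vehicle and -1.52 (95% interval -1.71 to -1.34) in combination over ERBB2i, or -0.83 after thinning. Nlrp3, a sensor through which it is released, stood at 46.2 CPM with vehicle, 9.36 with anti-PD-1, 73.4 with ERBB2i and 19.4 with the combination. Tnf stood at 27.9 CPM with vehicle, 28.1 with anti-PD-1, 31.8 with ERBB2i and 26.7 with the combination, and each of its 4 intervals spanned equal levels. In combination over ERBB2i 7 of 12 tested genes of the list were lower (Il1a, Il1b, Osm, Nlrp3, Ptgs2, Nfkbiz and Tnfaip3) and 1 higher (Il18), beside 3.50% and 4.28% of all genes, with a median of -1.24 that went to -0.47 after thinning.

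Immediate early and heat shock genes, which cells switch on within minutes of a stimulus, were lowest in anti-PD-1 members. Fos, a subunit of AP-1, stood at 931 CPM with vehicle, 84.2 with anti-PD-1, 1195 with ERBB2i, 687 with the combination and 1089 with the combination in response. Atf3, a stress-induced factor, stood at 829 CPM with vehicle, 168 with anti-PD-1, 892 with ERBB2i, 322 with the combination and 503 with the combination in response. ERBB2i was highest for both. Nr4a1, an orphan nuclear receptor, stood at 309 CPM with vehicle, 46.8 with anti-PD-1, 265 with ERBB2i, 38.2 with the combination and 151 with the combination in response. Hspa1a, an inducible chaperone, stood at 268 CPM with vehicle, 37.4 with anti-PD-1, 467 with ERBB2i, 101 with the combination and 2195 with the combination in response. Anti-PD-1 was lowest for 3 of these 4, and combination for Nr4a1. Of 19 genes, 16 were lower in anti-PD-1 (median -2.50), 10 in combination over vehicle (-1.0) and 9 in combination over ERBB2i (-0.80), with 0 higher, beside 19.2%, 3.91% and 3.50% of all genes. In ERBB2i 1 was higher and 1 lower (0.31), beside 8.14% and 3.87% of all genes. Other barcodes summed to 3639 CPM of the list with vehicle, 1692 with anti-PD-1, 4055 with ERBB2i and 3541 with the combination, so that the order of vehicle, anti-PD-1 and ERBB2i was the same outside the members. Members held 9275, 1927, 10725.5 and 5451, and 4 to 6 genes of the list were under 2 times their level in other barcodes. The part of those barcodes in the members' levels was not tested.

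**Figure D5:**
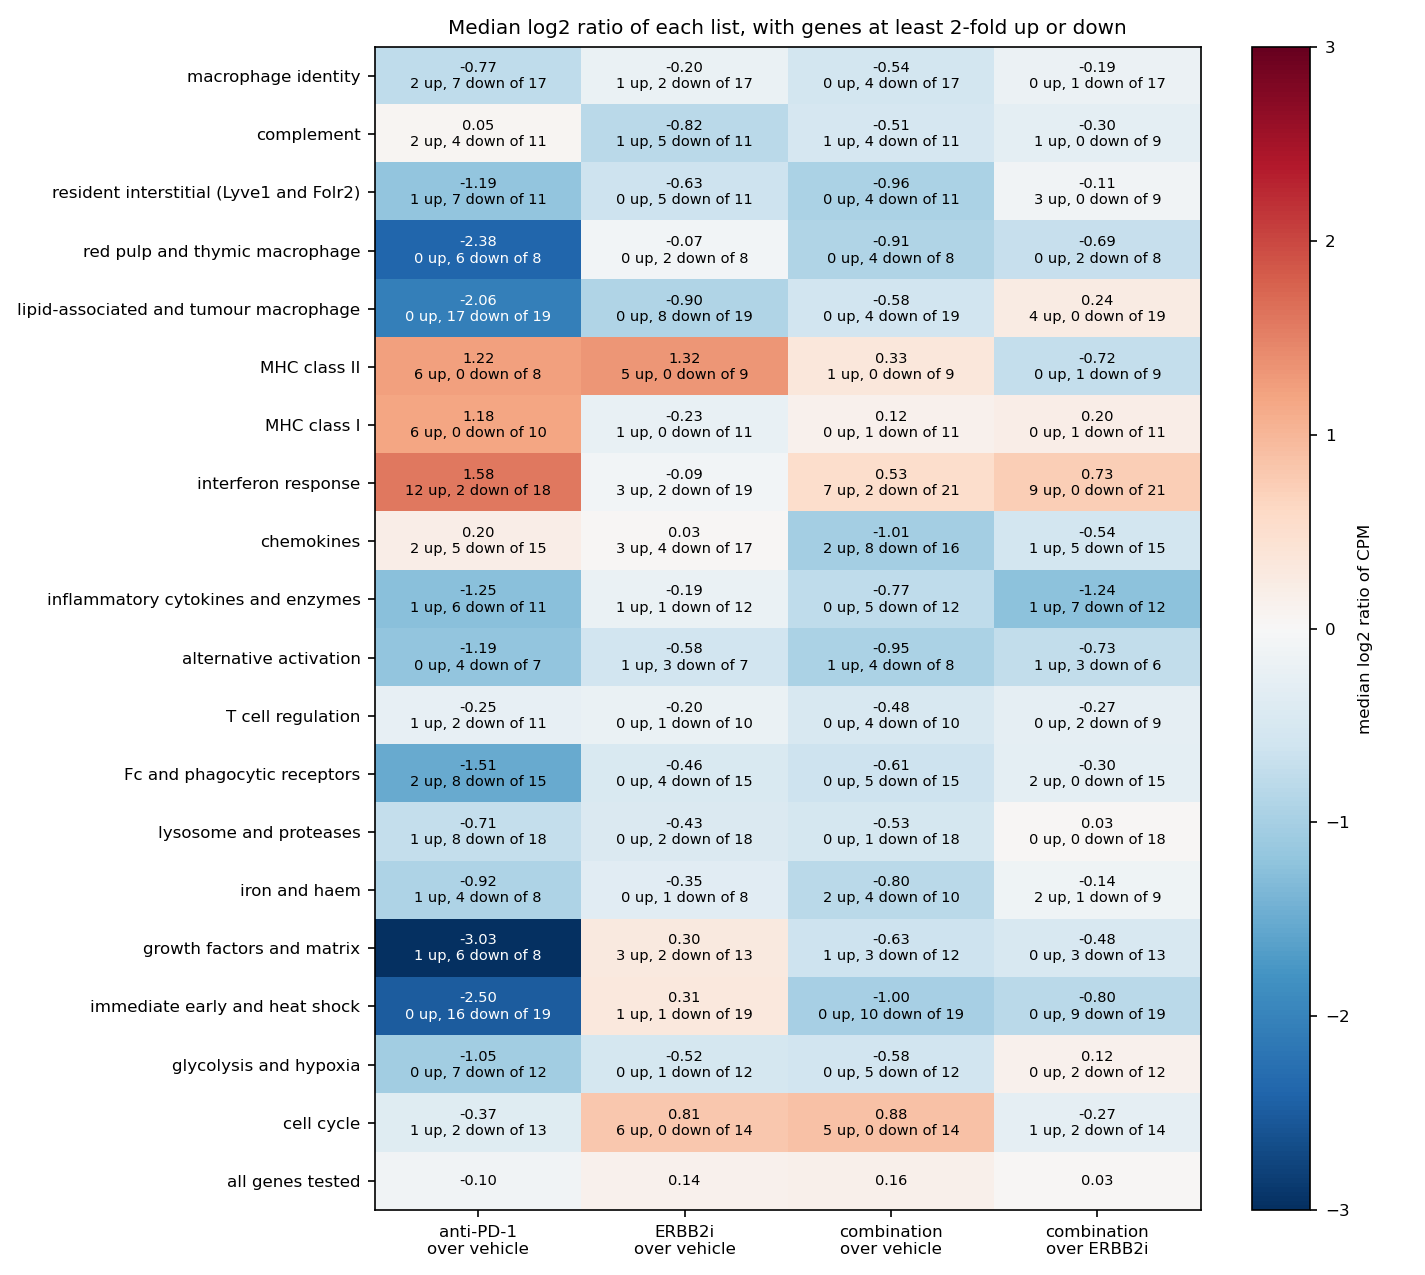
Median log2 ratio of each gene list over members in 4 pairs of libraries (columns), with the number of genes at least 2-fold higher and lower among those tested. MHC class II is at 1.32 in ERBB2i over vehicle and 1.22 in anti-PD-1 over vehicle, and the lipid-associated list is at -2.06 in anti-PD-1 over vehicle and 0.24 in combination over ERBB2i.

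Of the complement genes beyond C1q, C3, the central component, was higher in anti-PD-1 and combination than in vehicle. It stood at 54.8 CPM with vehicle, 131 with anti-PD-1, 62.5 with ERBB2i, 141 with the combination and 201 with the combination in response. Its log2 ratio was 1.37 (95% interval 0.93 to 1.83) in combination over vehicle and 1.18 (95% interval 0.76 to 1.62) over ERBB2i, and 110 of 552 combination members held a UMI. Of 17 complement genes, 11 were tested in each pair with vehicle, with 2 higher and 4 lower in anti-PD-1, 1 and 5 in ERBB2i and 1 and 4 in combination, beside 10.0% and 19.2%, 8.14% and 3.87%, and 9.23% and 3.91% of all genes. C4b, C5ar1 and Vsig4 were lower in each of the 3, and all Vsig4 UMIs of vehicle lay in 6 members of cluster 8.

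Among receptors for antibody, Fcgr4 and Fcgr3 lay on opposite sides of vehicle in anti-PD-1. Fcgr4, an activating receptor of nonclassical monocytes, stood at 359.9 CPM with vehicle, 1525 with anti-PD-1, 235 with ERBB2i, 235 with the combination and 0 with the combination in response. The log2 ratio was 2.08 (95% interval 1.80 to 2.36) in anti-PD-1 over vehicle, and in anti-PD-1 72.4% of its UMIs lay in cluster 9. Fcgr3, which binds immune complexes, stood at 1200.0 CPM with vehicle, 318 with anti-PD-1, 696 with ERBB2i, 566 with the combination and 989 with the combination in response, with -1.92 (95% interval -2.45 to -1.42). Fcgr4 was found in 59.5% of anti-PD-1 and 40.1% of vehicle members, and after thinning in 37.8% and 11.2%, against 0% and 0.0333% of tumour barcodes. Fcrl5, an Fc receptor-like protein, had the largest log2 ratio among the genes named by size in anti-PD-1, 5.61 (95% interval 4.62 to 6.74), from 56 UMIs in 13 members against 10 in 3. Cd72, a lectin of B cells and some macrophages, stood at 106 CPM with vehicle, 1169.5 with anti-PD-1, 221 with ERBB2i and 191 with the combination, with 3.46 (95% interval 3.07 to 3.85).

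Of the genes of recruited monocytes, Ly6c2, Ccr2, Plac8 and Ms4a4c were higher in anti-PD-1. Ly6c2, the marker of classical monocytes, stood at 37.6 CPM with vehicle, 618 with anti-PD-1, 70.2 with ERBB2i and 73.8 with the combination, and other barcodes of anti-PD-1 held 203 CPM. Of the 66 Ly6c2 UMIs of anti-PD-1 members, 1 member held 42.4%. In members with no tumour UMI the ratio of Ly6c2 to vehicle was 2.40, against 4.04 (95% interval 3.43 to 4.67) in all. Of 7 classical monocyte genes, 4 of 5 tested were higher (Ly6c2, Ccr2, Plac8 and Ms4a4c) and 1 lower (F13a1), beside 10.0% and 19.2% of all genes, and the list summed to 2058 CPM in anti-PD-1 members, 415 in vehicle, 467 in ERBB2i and 668 in combination. Whether these members were macrophages or monocytes with C1q UMIs was not tested.

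Hmox1, Slc40a1 and Trf, genes of iron and haem handling, were lowest in anti-PD-1. Hmox1, which breaks down haem, stood at 1197 CPM with vehicle, 159 with anti-PD-1, 1217 with ERBB2i, 477 with the combination and 402 with the combination in response. Slc40a1 stood at 529 CPM with vehicle, 84.2 with anti-PD-1, 441 with ERBB2i, 257 with the combination and 1558 with the combination in response. Trf, transferrin, stood at 1649 CPM with vehicle, 140.3 with anti-PD-1, 468 with ERBB2i, 376 with the combination and 1659 with the combination in response. Combination in response reached the vehicle level only for Slc40a1 and Trf. Vcam1, an adhesion molecule that also marks iron-recycling macrophages, stood at 953 CPM with vehicle, 178 with anti-PD-1, 951 with ERBB2i, 553 with the combination and 3770.4 with the combination in response. Between ERBB2i and vehicle the 95% interval of the log2 ratio was -0.10 to 0.14 for Hmox1 and -0.14 to 0.13 for Vcam1. Of 10 genes of red pulp and thymic macrophages, which clear red cells and dying thymocytes, 6 of 8 tested were lower in anti-PD-1 (median -2.38), 2 in ERBB2i (-0.07), 4 in combination over vehicle (-0.91) and 2 in combination over ERBB2i (-0.69), with 0 higher, beside 19.2%, 3.87%, 3.91% and 3.50% of all genes called lower, and the ERBB2i median was above 0 in 3 alternatives. With no tumour UMI, the red pulp and thymic median in combination over ERBB2i was -0.009. Of 11 iron and haem genes, 4 of 8 tested were lower in anti-PD-1 and 1 higher (Cp), and 4 and 2 of 10 in combination over vehicle, beside 19.2% and 10.0%, and 3.91% and 9.23%, of all genes.

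Of the genes of T cell regulation, PD-L1 passed 2-fold in none of the 4 pairs. Cd274, which encodes this ligand of PD-1, stood at 89.2 CPM with vehicle, 74.8 with anti-PD-1, 72.3 with ERBB2i, 68.6 with the combination and 83.8 with the combination in response, and all its intervals between libraries spanned equal levels, the widest from -1.51 to 0.79 in anti-PD-1. Vsir, which encodes VISTA, stood at 188 CPM with vehicle, 168 with anti-PD-1, 164 with ERBB2i, 127 with the combination and 268 with the combination in response. Cd86, a costimulator, stood at 116 CPM with vehicle, 122 with anti-PD-1, 139 with ERBB2i, 89 with the combination and 385 with the combination in response. Cd40, through which T helper cells license antigen presentation, was the 1 gene of 11 tested called higher in anti-PD-1 (10.0% of all genes), at a log2 ratio of 2.94 (95% interval 1.84 to 4.03) from 15 against 17 UMIs. Cd80, another costimulator, was lower in combination than in ERBB2i, at -1.54 (95% interval -2.24 to -0.87). Of 15 genes, 2 of 11 tested were lower in anti-PD-1, 1 of 10 in ERBB2i, 4 of 10 in combination over vehicle (Lgals9, Vsig4, Cd80 and Tnfsf9) and 2 of 9 in combination over ERBB2i, with medians from -0.20 to -0.48, beside 19.2%, 3.87%, 3.91% and 3.50% of all genes. The ERBB2i median was above 0 in 5 alternatives, up to 0.25 without clusters 3 and 7, and that of combination over vehicle was 0.01 with the RNA of other barcodes subtracted. Pdcd1lg2 had 0 to 10 UMIs per library, too few to order.

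Among the 10 largest ratios of combination over ERBB2i were 4 genes of protease, lipid and MHC function. Ctsk stood at 24.7 CPM with vehicle, 0 with anti-PD-1, 11 with ERBB2i and 365 with the combination. Pla2g2d, a secreted phospholipase, stood at 61.2 CPM with vehicle, 159 with anti-PD-1, 7.67 with ERBB2i, 454 with the combination and 587 with the combination in response. ERBB2i lay below vehicle for both. Fabp4, a fatty acid carrier, stood at 204 CPM with vehicle, 243 with anti-PD-1, 23 with ERBB2i, 327 with the combination and 16.8 with the combination in response. H2-M2, an MHC class I-like gene, stood at 41.9 CPM with vehicle, 646 with anti-PD-1, 76.7 with ERBB2i, 445 with the combination and 268 with the combination in response. The log2 ratios of combination over ERBB2i were 5.06 (95% interval 4.17 to 6.12) for Ctsk, 5.89 (95% interval 4.84 to 7.21) for Pla2g2d, 3.83 (95% interval 3.2 to 4.53) for Fabp4 and 2.54 (95% interval 2.18 to 2.91) for H2-M2. Ctsk, Pla2g2d and Fabp4 are leading genes of cluster 4, where 86 of the 99 members were from combination. In anti-PD-1 H2-M2 rested on 1 member with 95.7% of its UMIs. Scd1, a fatty acid desaturase, and Sftpc, surfactant protein C of alveolar epithelium, were also among the 10, with 78.2% and 92.9% of combination UMIs in 1 member each. Chil3, a chitinase-like protein of alveolar macrophages, stood at 204 CPM in combination members and 221 in its other barcodes. Chil3 is also a leading gene of cluster 4, which held 65.6% of its combination UMIs and 80.2% of those of Marco. Whether members of cluster 4 were alveolar macrophages without UMIs of Siglecf, Mcemp1 and Plet1 was not tested.

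The remaining genes named by size were, in anti-PD-1 over vehicle, Ly6a, Ms4a4c, Clec4a1, Tmem176b and Clec4a3 among the higher, from 2.20 to 5.12 on the log2 scale, and Dusp1, Cd14, Mmp13 and Plaur among the lower, from -2.92 to -3.70. Dusp1 switches off stress kinases, Cd14 is the endotoxin co-receptor, Mmp13 is a collagenase and Plaur the urokinase receptor. In ERBB2i over vehicle Calhm6, Plbd1, Mgl2 and Stard9 were higher, from 1.61 to 2.10, and Slpi, F13a1, Olr1, Ltc4s, Fabp4 and Pla2g2d lower, from -3.0 to -4.31. Calhm6 is a channel subunit induced by interferon, Slpi a protease inhibitor and Olr1 a receptor for oxidised lipoprotein. In combination over vehicle Iigp1 and Serpina3g, both induced by interferon, were higher at 2.43 and 2.31, and Prtn3, Lyz1 and Prg4 lower, from -2.97 to -3.92. In combination over ERBB2i Acod1, which makes itaconate, and Slpi were higher, at 3.0 and 3.77, and Ccl7, Fosb, Hspa1b, Plaur, Pxdc1 and Vegfa lower, from -2.04 to -2.75. Vegfa, which drives vessel growth, was lower in members of combination (27.8 CPM) than in its other barcodes (56).

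Cell cycle genes could not be read in the members. Mki67 stood at 222 CPM with vehicle, 140.3 with anti-PD-1, 491 with ERBB2i and 377 with the combination in members and at 789, 800.2, 1411 and 775 in the other barcodes, and each of the 13 or 14 genes tested in a pair was under 2 times its level in other barcodes. Their counts, 6 of 14 higher in ERBB2i and 5 of 14 in combination over vehicle, stood beside those of the neuroendocrine list, where 6 of 11 and 9 of 12 were higher. Called higher in these pairs were 8.14% and 9.23% of all genes.

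Members were set beside 2 other groups of phagocytes from the same libraries. The alveolar macrophage gate (at least 2 UMIs of Siglecf, Mcemp1 and Plet1, and 0 of the lymphocyte genes) held 91, 17, 77, 694 and 4 barcodes, and the monocyte gate (Csf1r with Ly6c2, Vcan, Ace or Treml4, and 0 UMIs of C1q and of the 6 genes) 14, 7, 47, 105 and 1, so that levels are compared in the 3 and 2 libraries with at least 20. Ms4a7 was higher in members in 3 of 3 libraries, at 1245, 1138 and 1294 CPM against 111, 39.4 and 233 in the alveolar gate. So were Selenop, at 2326, 1551 and 1198 against 1288, 114 and 444, and Apoe, Vcam1, Slc40a1, Pf4 and Cd74. The given marker Mrc1 was higher in members in only 1 of 3, at 363, 242 and 225 against 487, 26.3 and 468. Mertk and Lyz2 were also higher in members in only 1 of 3. Chil3 was lower in members in 3 of 3, at 17.2, 5.48 and 204 against 2009.5, 223 and 4584, and Marco and Cd9 likewise. In ERBB2i, though, Marco was near the floor on both sides, at 0 CPM in members and 4.38 in the gate. The alveolar gate of ERBB2i also held monocyte genes, with Plac8 at 661, Ly6c2 at 311 and Ccr2 at 302 CPM. In that of vehicle these stood at 90.5, 40.1 and 29.0. Which cells the ERBB2i gate held was not tested. Spp1 was lower than in the alveolar gate in vehicle and combination (2968 and 1729 against 8314 and 3897) and higher in ERBB2i (429.7 against 188). Mmp12 (696 and 1087 against 1612 and 1824) and Lpl (764 and 858 against 1957 and 2544) were likewise lower in vehicle and combination. Both were higher in ERBB2i. Trem2, Gpnmb, Fabp5 and Lgals3 of the same list were higher in members in 3 of 3, with Trem2 at 281 against 279 in combination. The 2 gates share no barcode with the members by their rules, and the alveolar gate of vehicle held 1117 CPM of C1qa, against 2412 in members. Against the monocyte gate, members of ERBB2i and combination were higher in H2-Aa (5349 and 3162 against 926 and 739) and Cd68, and lower in Csf1r, Plac8, Ly6c2 and Ccr2. Csf1r and Ly6c2 were used to set that gate. In these 2 libraries the gate held 3500 and 4978 CPM of the 14 tumour genes, against 1737 and 2852 in members. The part of tumour RNA in these levels was not tested.

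In the 15 members of combination in response Selenop and Vcam1 were above their levels in the other 4 libraries. Selenop stood at 10088 CPM (602 UMIs in 13 members), and Vcam1 at 3770.4 (225 UMIs in 10). In vehicle, Selenop was at 2326 and Vcam1 at 953. Retnla, a secreted product of alternatively activated macrophages, stood at 4541 CPM, from 271 UMIs of which 1 member held 66.8%. Lyve1, the hyaluronan receptor that marks perivascular macrophages, had 25 UMIs in 2 members, Folr2, a folate receptor, 43 in 3, Cd209f, a lectin, 74 in 2, and Cd163, the haemoglobin scavenger, 37 with 83.8% in 1 member. All Lyve1 and Cd209f UMIs and 97.7% of those of Folr2 lay in the 2 members of cluster 8. Over 14 resident interstitial genes the sum was 20913 CPM, against 1909 to 4784 in the other libraries. Selenop alone gave 10088 of that sum. The 10 red pulp and thymic macrophage genes were also highest here, at 9518 CPM against 1160 to 5433. Spp1, Gpnmb, Mmp12, Arg1, Saa3, Cxcl9, Ccl12 and Fcgr4 had 0 UMIs, which allows up to 50.3 CPM for each. Of the 15, 5 were in the shallow cluster 1, 4 in cluster 5, 3 in cluster 2, 2 in cluster 8 and 1 in cluster 6. T cell genes summed to 1575 CPM in these members, the highest of the 5 libraries, beside 21158 in its other barcodes, and their part in these levels was not tested.

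Of the resident interstitial list in the other libraries, 7 of 11 tested were lower in anti-PD-1 and 1 higher (median -1.19), 5 and 0 in ERBB2i (-0.63), 4 and 0 in combination over vehicle (-0.96, or 0.31 in members with no tumour UMI), and 0 lower and 3 higher of 9 in combination over ERBB2i (-0.11, above 0 in 6 alternatives). Of all genes, 19.2% were lower and 10.0% higher in anti-PD-1, 3.87% lower in ERBB2i, 3.91% lower in combination over vehicle and 4.28% higher in combination over ERBB2i. Lyve1 had 15, 0, 0 and 37 UMIs in vehicle, anti-PD-1, ERBB2i and combination, and Folr2 51, 7, 1 and 42. In ERBB2i Lyve1 may lie at up to 3.29 CPM, and Folr2 was -5.64 (95% interval -10.97 to -3.10) on the log2 scale against vehicle.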

How the data were processed

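Single-cell RNA-seq was made from 5 libraries. The deposited matrices hold UMI counts per gene and barcode, made by the authors with CeleScope from Singleron SCOPE-chip libraries per the study's methods. The submitters' processing notes also name mm10, Cell Ranger and Scanpy. Their versions and roles were not stated in any source used. Members were selected with numpy 2.4.6, scipy 1.17.1 and pandas 2.3.3, and clustered with scanpy 1.11.5 on 2000 variable genes, 30 components and 15 neighbours at resolution 0.8. UMIs were summed over the members of each library, scaled to CPM, and compared as log2 ratios with exact conditional binomial intervals. Levels carry exact Poisson intervals and shares Clopper-Pearson intervals, for counting error only. A gene with 0 UMIs was set to 3 counts for a bound. TMM factors came from edgeR 4.0.16 in R 4.3.3, with no test. Doublets were scored with Scrublet and not removed. Genes were named from the given markers, 35 lists, and the 10 largest ratios in each direction of a pair, given 50 UMIs in the higher library, 5 in the lower and 2 times the level of other barcodes. RefSeq symbols matched 26518 of 32589 genes. The members and lists were chosen with earlier results of these data known. Alternatives covered the C1q minimum, tumour UMIs, macrophage genes, mitochondrial share, doublet score, thinning, scaling and low-count filter. A few genes that met these rules are not reported here.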

Additional observations from a re-analysis of the deposited data

How the results depend on the processing

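With 1 library per group no library could be left out. No paired analysis was possible because each group held 1 library. Depth limits anti-PD-1 (37 members) and combination in response (15 members) most. Of 13 alternatives, 2 were chosen after seeing the data, those without clusters 3 and 7 (tumour transcripts) and without clusters 3, 7 and 8 (Prg4). Of the recomputed list medians, 932 lay within 1.5-fold of the main value, 54 moved further and 1 that had been at least 2-fold changed sign. Medians under 2-fold that changed sign are not counted as reversed.

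Members per 100 barcodes of vehicle were 1.30 with at least 5 C1q UMIs, 0.97 with at least 10, 0.41 with no tumour UMI and 1.31 without clusters 3 and 7. For anti-PD-1 it was 0.18 with no tumour UMI. In ERBB2i these shares were 0.88, 0.65, 0.26 and 0.83, and in combination 1.5, 1.14, 0.40 and 1.5, with 1.81 for members with at least 3 macrophage genes.

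Genes past 2-fold numbered 1606 in anti-PD-1 over vehicle, and 261 with no tumour UMI, 137 after thinning and 4414 with a filter of 5 UMIs. In ERBB2i over vehicle 872 became 218, 191 and 3004, and 1459 with members averaged equally. In combination over vehicle 948 became 389, 406 and 3227, and in combination over ERBB2i 585 became 319, 298 and 2582. Thinning leaves fewer UMIs, and so fewer genes tested.

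With no tumour UMI, log2 ratios reversed for Arg1 (0.048), Spp1 (1.51) and Gpnmb (0.16) in ERBB2i over vehicle, Prg4 (0.92) in combination over vehicle, and Cd5l (0.38) and Cd14 (0.43) in combination over ERBB2i. Without clusters 3, 7 and 8 they reversed for Arg1 (0.025) and Thbs1 (0.10) in ERBB2i and for Fcna (0.91), Saa3 (1.00) and Cxcl13 (4.84) in combination over vehicle. H2-M2 in anti-PD-1 was -0.44 with at least 5 C1q UMIs, and the inflammatory median in anti-PD-1 was 0.37 after thinning. The cause was not tested.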
